A study of Bos taurus with 30 samples.

Results

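The difference between 2 regions of the bovine endometrium was set side by side in cows carrying embryos made in different ways. In each animal, RNA of the caruncles and of the intercaruncular endometrium was hybridised together on arrays with 2 colours, and the deposited value, a log ratio of the channels, is read here as a ratio of the tissues. The first group is IVF-ET, cows labelled as pregnant after in vitro fertilisation and embryo transfer, with 4 animals on 8 arrays. They were set against AI, cows labelled as pregnant after artificial insemination, with 5 animals on 10 arrays. These 18 arrays of 9 animals are part of 30 arrays of 15 animals, and were chosen by the label for the way of conception alone. A further 5 animals labelled SCNT (somatic cell nuclear transfer) entered the fit so that the spread rests on more animals. Breed, age and day of pregnancy are not given in the labels, nor how the cows were kept or related, and p-values measure the spread between these animals.

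Caruncles are the raised, gland-free patches of the ruminant uterus to which the placenta attaches, and fuse with fetal cotyledons to form placentomes. The intercaruncular endometrium between them carries the uterine glands, whose secretions feed the conceptus before and during attachment. A tissue ratio therefore weighs gland and surface epithelium, stroma, vessels, muscle and leukocytes of both regions against each other. Fewer cells of a type and less RNA per cell cannot be told apart in such bulk samples.

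The labels do not state whether the deposited ratios follow the dyes or were already turned to the tissues, which tissue is on top, nor the base of the logarithm, which is taken here as log2; no gene is therefore called higher in one tissue, and no fold is given. The mean AI profile correlated with the mean IVF-ET profile at r = -0.270 over probes, and with the mean SCNT profile at r = -0.292, so the sign of the AI values is in doubt. Each difference is given with AI as deposited and with the AI sign turned (each AI value multiplied by -1). IVF-ET replicate 3 was left out because both of its arrays carry the same dye orientation in the labels. Its arrays correlated over all probes at r = -0.317, and those of IVF-ET replicate 4, which was kept, at r = -0.318. The animals differed in the named genes past the threshold given below. There the arrays of replicate 4 shared a sign in each gene, and those of replicate 3 had opposite signs. For GJA1 they gave -2.24 and -1.89 in replicate 4, and 2.71 and -2.46 in replicate 3. Replicate 4 was in the fit that picked these genes, and replicate 3 was not. The 18 arrays carried values at 26744 to 27641 spots, and duplicate spots of an array correlated at r between 0.562 and 0.903. Array medians lay between -0.0164 and 0.019. Signal over background is not known from ratios, and the number of animals limits the precision.

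With AI as deposited, 8 of 13818 probes passed the threshold (adjusted p under 0.05 in limma's moderated test, Benjamini-Hochberg over all probes), which is 0.0579%. The ratio was higher in IVF-ET animals for 4 of them (0.0289%) and lower for 4 (0.0289%). The groups did not overlap for 7 of the 8, while they did not overlap for 460 or 3.33% of all probes (205 higher in IVF-ET, 1.48%, and 255 lower, 1.85%). Of these 8 probes, 6 have a gene symbol. They are the junction and matrix genes GJA1, CGN and CCN2, the transcriptional repressor SNAI2, the glycolytic regulator PFKFB3 and the mitochondrial ribosome assembly factor MALSU1. In all, 1157 probes or 8.37% had an unadjusted p under 0.05.

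GJA1 (gene ID 281193) encodes a gap junction channel protein that couples neighbouring cells and is regulated in the ruminant and rodent uterus during pregnancy. Its log2 ratio was -1.88, -1.62, -2.06 and -1.53 in the IVF-ET animals, against -0.72, 0.84, 1.43, 1.55 and -0.28 in the AI animals. The IVF-ET animals lie close together and below every AI animal, whereas the AI animals lie on both sides of 0. The means were -1.77 ± 0.24 in IVF-ET (SD, n = 4) and 0.56 ± 1.02 in AI (SD, n = 5), a difference of -2.34 ± 0.40 (SE; limma, adjusted p = 0.0497). AI replicate 1 had opposed values on its arrays, -1.96 and 0.52. The animal left out, IVF-ET replicate 3, had 2.71 on 1 array and -2.46 on the other.

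SNAI2 (gene ID 520631) is a zinc finger repressor that silences epithelial junction genes when cells turn mesenchymal. Its ratio was -0.73, -0.75, -0.42 and -0.62 in IVF-ET animals, against 0.89, 0.50, 0.79, 0.68 and 0.25 in AI animals. The groups lie on opposite sides of 0 with no animal in between. The difference was -1.25 ± 0.17 (SE; limma, adjusted p = 0.0328), the smallest p of all probes. The group means were almost mirror images, -0.63 ± 0.15 in IVF-ET (SD, n = 4) and 0.62 ± 0.26 in AI (SD, n = 5). The value of AI replicate 1 is the mean of -0.64 and 2.42 on its arrays.

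CGN (gene ID 533725) encodes cingulin, which sits on the inner face of tight junctions of epithelial cells. Its ratio was 0.95, 0.17, 0.92 and 0.60 in IVF-ET animals, against -0.07, -0.36, -0.57, -0.69 and -0.33 in AI animals. All IVF-ET animals were above 0 and all AI animals below it, with IVF-ET replicate 2 nearest to the AI group. Single arrays did not all keep to these sides. Those of IVF-ET replicate 2 gave -0.38 and 0.72, and those of AI replicate 1 gave 0.66 and -0.80. The difference was 1.07 ± 0.18 (SE; limma, adjusted p = 0.0488). The direction is opposite to that of SNAI2 in the same animals, and a link between these genes was not tested.

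PFKFB3 (gene ID 407183) is the bifunctional enzyme that makes the sugar phosphate by which glycolysis is switched on. Its ratio was 1.08, 0.58, 0.40 and 0.58 in IVF-ET animals, against -0.33, -0.59, -0.52, -0.20 and -0.13 in AI animals. Again the animals of the groups stood on opposite sides of 0, although the arrays of AI replicate 1 gave 0.67 and -1.33. The difference was 1.02 ± 0.17 (SE; limma, adjusted p = 0.0488). MALSU1 (gene ID 509253), which helps to assemble the large subunit of the mitochondrial ribosome, went the other way. Its ratio was -0.81, -0.35, -0.56 and -0.59 in IVF-ET animals, against -0.06, 0.48, 0.59, 0.58 and 0.45 in AI animals. AI replicate 1 stood apart from the other AI animals and nearest to IVF-ET. The arrays of AI replicate 1 gave -0.43 and 0.31, and those of AI replicate 5 gave -0.21 and 1.10. The difference was -0.98 ± 0.16 (SE; limma, adjusted p = 0.0488).

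CCN2 (gene ID 281103), a secreted matricellular protein that acts downstream of TGF-beta and YAP, is the called gene whose groups overlap. Its ratio was 1.68, 0.66, 1.30 and 1.41 in IVF-ET animals, against -0.67, -1.02, -0.55, -0.91 and 0.71 in AI animals. AI replicate 5 lies above IVF-ET replicate 2 and far from the other AI animals. Its own arrays gave 1.79 and -0.37, and those of AI replicate 1 gave 1.14 and -2.48. The difference was 1.75 ± 0.30 (SE; limma, adjusted p = 0.0497).

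**Figure D1:**
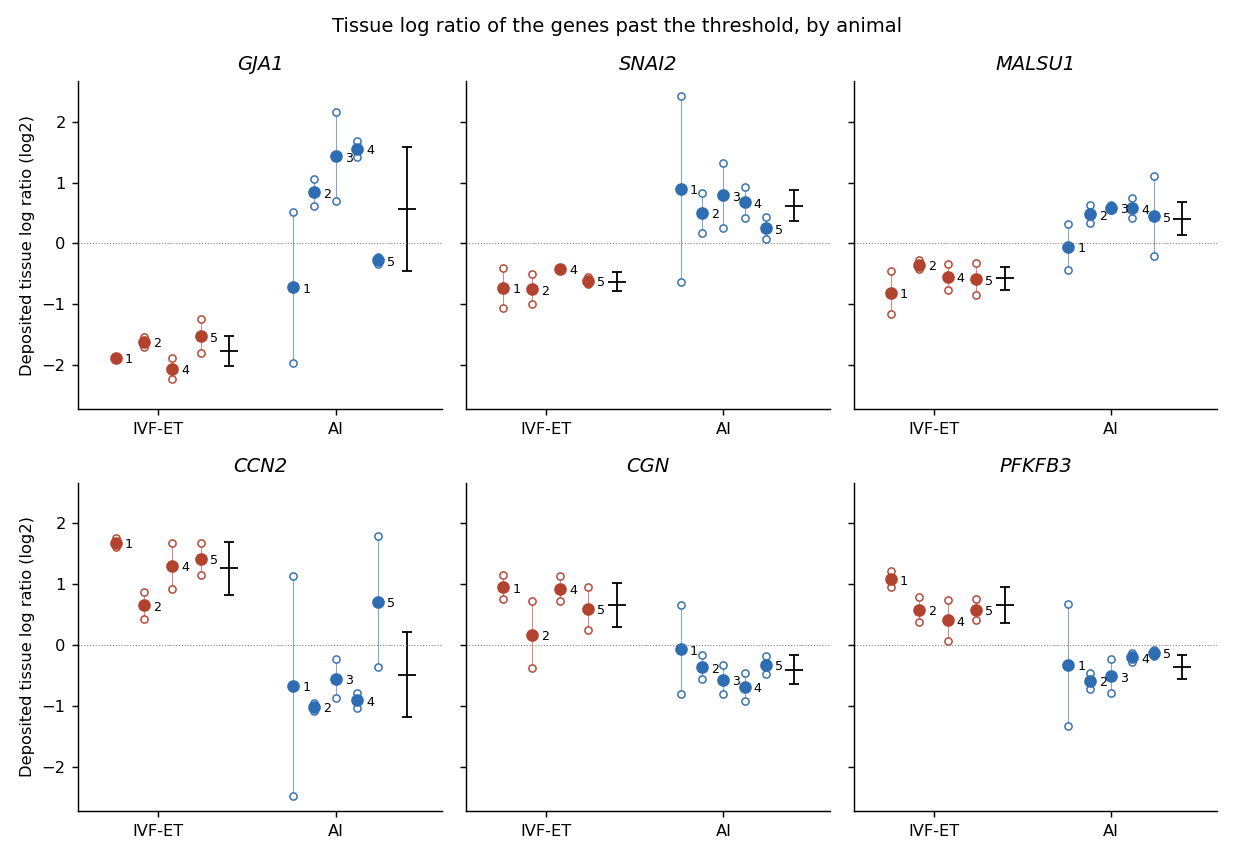
Deposited tissue log ratio (log2, vertical axis) of the 6 named genes past the threshold, in 4 IVF-ET animals (left, red) and 5 AI animals (right, blue). Filled points are animals with their replicate number, open points joined by a line are their arrays, and bars are the mean and SD over animals. IVF-ET animals lie below all AI animals for GJA1, SNAI2 and MALSU1 and above them for CGN and PFKFB3, whereas for CCN2 AI replicate 5, at 0.71, overlaps IVF-ET.

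How many probes passed depended on single animals. The count was 0 without AI replicate 2, 3 or 4 or without IVF-ET replicate 1, 4 or 5, and 1 without IVF-ET replicate 2. It was 26 without AI replicate 1 and 22 without AI replicate 5. Had IVF-ET replicate 3 stayed in, the count was 33 when its first array was turned and 0 when its second was, and the labels do not say which is right. As deposited, its first array correlated at r = -0.526 with the mean of the kept IVF-ET arrays and at -0.295 with the SCNT mean. Its second array had 0.374 and 0.438. Which array is mislabelled was not tested. Over all alternatives run, the one by dyes aside, the difference as deposited lay between -2.89 and -1.47 for GJA1 and between -1.35 and -0.96 for SNAI2.

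The genes next in line did not pass the threshold with AI as deposited. GRB7, an adaptor that binds the receptor ERBB2, had a difference of 1.35 ± 0.26 (SE; limma, adjusted p = 0.0976), and ALAD, an enzyme of haem synthesis, one of 1.25 ± 0.25 (SE, adjusted p = 0.0976). Below 0 stood COL6A3, a chain of the type VI collagen of loose connective tissue, at -1.61 ± 0.29 (SE; limma, adjusted p = 0.0599). TWSG1, a secreted BMP antagonist, had -0.78 ± 0.15 (SE; limma, adjusted p = 0.0976). The groups did not overlap for these 4 genes: COL6A3, for one, was -1.47, -0.78, -0.81 and -0.64 in IVF-ET animals and 0.61, 1.20, 1.12, 0.64 and -0.14 in AI animals. The value of AI replicate 1 for COL6A3 is the mean of -1.38 and 2.61 on its arrays. The arrays of that animal were also opposed for GRB7, at 1.33 and -0.86, and for ALAD, at 1.16 and -1.02.

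With the AI sign turned, 0 of 13818 probes passed the threshold (limma, smallest adjusted p = 0.999), and 521 or 3.77% had an unadjusted p under 0.05. The groups did not overlap for 205 probes or 1.48%, 92 of them higher (0.666%) and 113 lower (0.818%) in IVF-ET. If the values were instead dye ratios and each array was turned by its labelled dyes, 1074 probes passed with the AI sign turned and 0 as deposited. That turned comparison adds the group means, so these 1074 are not read as differences between the groups. With the AI sign turned in the tissue reading, the 6 genes above lost their differences in unequal measure. SNAI2 had a difference of -0.01, MALSU1 of -0.17, CGN of 0.26 and PFKFB3 of 0.31. CCN2 had 0.78 ± 0.30 (SE; limma, unadjusted p = 0.0210, adjusted p = 0.999). GJA1 had -1.21 ± 0.40 (SE; limma, unadjusted p = 0.00815, adjusted p = 0.999), between -1.65 and -0.34 over the alternatives other than the one by dyes. The mean of IVF-ET is larger in size than the AI mean for all 6 genes. The gap is wide for GJA1, -1.77 against 0.56, and for CCN2, 1.26 against -0.49, and slight for SNAI2, -0.63 against 0.62. For SNAI2, MALSU1, CGN and PFKFB3 the unadjusted p in the turned reading was above 0.05. The calls of all 6 rest on the sign of AI, which the labels do not settle.

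The turned comparison adds the group means, so by construction it favours genes whose ratio had the same sign in both groups as deposited. Its smallest unadjusted p came mostly from such genes. SOX6, a transcription factor of the SOX family, was 0.60, 0.15, 0.22 and 0.21 in IVF-ET animals, against 0.18, 0.06, 0.30, 0.27 and 0.39 in AI animals. As deposited the groups overlap; turned, the difference was 0.53 ± 0.12 (SE; limma, unadjusted p = 0.000408). A second SOX6 probe gave 0.10 in that reading (limma, unadjusted p = 0.411). FAM3D, a secreted protein of the gut and of other epithelia, was -0.45, -0.23, -0.47 and -0.29 in IVF-ET animals and -0.75, 0.09, -0.28, -0.53 and -0.48 in AI animals. The others named by p, besides CLU, PNPLA2 and ZDHHC14, were the cell adhesion receptor CDH13 and the muscle and vessel transcription factor MEF2C, with turned differences of 0.38 and -0.41, the mitochondrial protease YME1L1 at -0.48, the cation transporter ATP13A4 at -0.72 and the calmodulin regulator PCP4 at -0.71. None passed the threshold, and SOX6, FAM3D and these 5 had AI means of the same sign as the IVF-ET means.

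Genes whose AI ratio is near 0 are read alike under either sign. No probe passed the threshold under both signs in limma, while 110 of 13818 (0.796%) had an unadjusted p under 0.05 in each with the same side, 57 higher (0.413%) and 53 lower (0.384%) in IVF-ET. CLU encodes the secreted chaperone clusterin, found in luminal and gland epithelium of many species. Ranked by the larger p across both signs, it has the smallest value among genes with a symbol. Its ratio was 1.10, 0.46, 1.21 and 0.76 in IVF-ET animals, against 0.56, -0.35, 0.17, -0.26 and -0.06 in AI animals. The AI animals scatter around 0, and AI replicate 1 lies above IVF-ET replicate 2. The difference was 0.87 as deposited and 0.90 turned (limma, unadjusted p = 0.00119 and 0.000901, adjusted p = 0.218 and 0.999).

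PNPLA2, the lipase that starts triglyceride breakdown in lipid droplets, was 0.71, 0.70, 0.51 and 0.31 in IVF-ET animals. Its AI animals lay within a narrow band below 0, at -0.03, -0.15, -0.07, -0.04 and -0.10. No animal of 1 group reached the other, and the difference was 0.63 as deposited and 0.48 turned. Single arrays were less well parted. Those of AI replicate 1 gave 0.21 and -0.27, and those of IVF-ET replicates 4 and 5 gave 0.07 and 0.94, and -0.11 and 0.73. PDZK1IP1, a small membrane protein of epithelia, was 0.92, 0.78, 0.67 and 1.00 in IVF-ET animals, against 0.20, -0.14, -0.04, -0.45 and -0.17 in AI animals. The palmitoyltransferase ZDHHC14 had differences of 0.68 and 0.58, and the bombesin-like peptide gene NMB of 0.58 and 0.46. These 5 genes stood on the higher side under both signs, none past the threshold.

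On the lower side stood GPX8, a peroxidase of the endoplasmic reticulum, at -0.63, -0.33, -0.57 and -0.67 in IVF-ET animals and -0.07, 0.17, 0.48, 0.36 and -0.20 in AI animals. Its difference was -0.70 as deposited and -0.40 turned (limma, adjusted p = 0.0976 and 0.999). TM7SF3, a membrane protein with several spans, was between -0.41 and -0.24 in IVF-ET animals and between -0.04 and 0.07 in AI animals. The co-chaperone CDC37L1 had differences of -0.40 and -0.41, and CHCHD3, which shapes the inner mitochondrial membrane, of -0.35 and -0.37. With GJA1, these are the 5 genes on the lower side ranked first by the larger p across both signs.

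**Figure D2:**
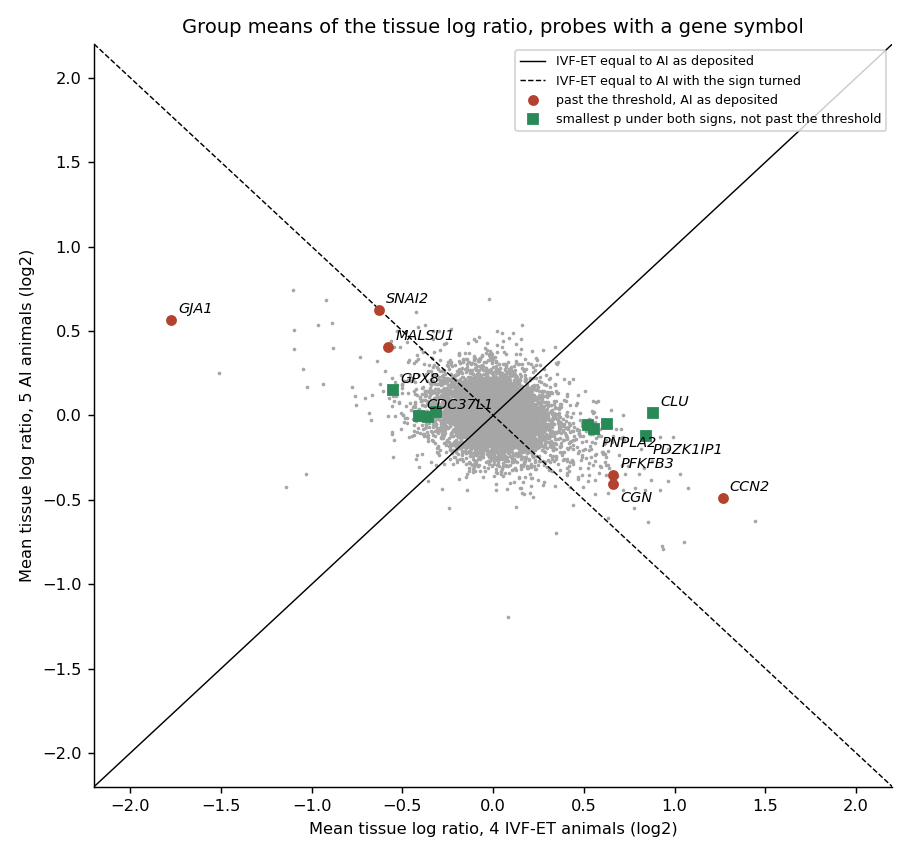
Mean tissue log ratio (log2) of probes with a gene symbol in 4 IVF-ET animals (horizontal axis) and 5 AI animals (vertical axis). On the solid line the groups are equal as deposited, on the dashed line they are equal with the AI sign turned; SNAI2 lies on the dashed line, GJA1 far from both, and the genes marked by squares have AI means near 0.

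**Figure D3:**
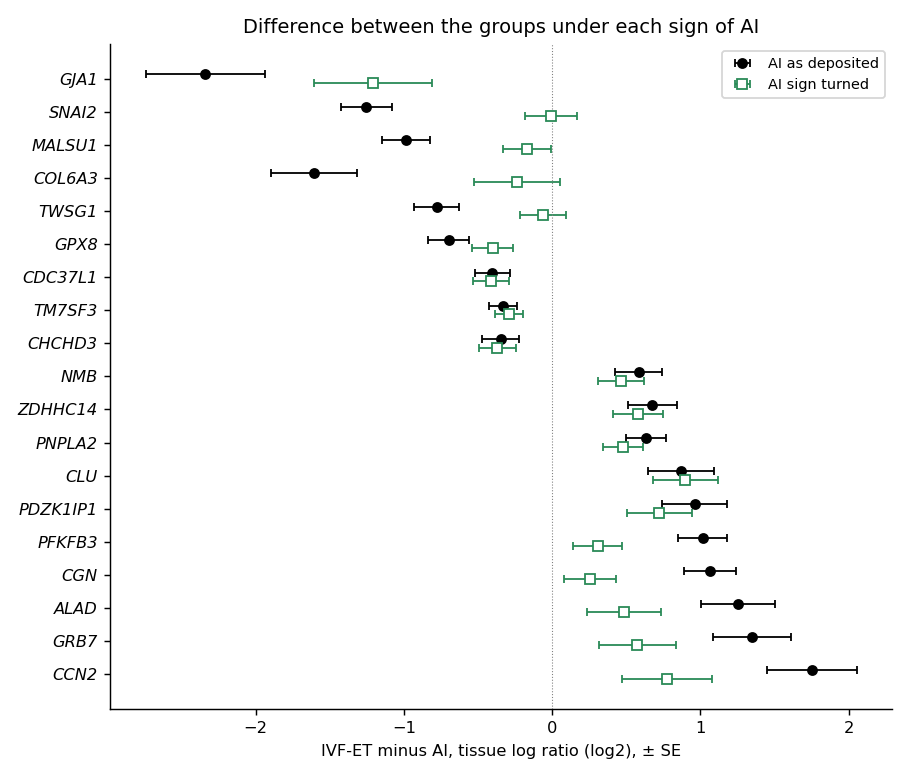
Difference between IVF-ET and AI in the tissue log ratio (log2, horizontal axis) with its SE, for 19 genes, with AI as deposited (filled circles) and with the AI sign turned (open squares). GJA1 keeps -1.21 with the sign turned and CLU 0.90, whereas SNAI2 moves to -0.01.

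Markers of the cell types and pathways were read as 26 gene lists, with 755 of the 8073 measured genes. As a background, 4.41% of all probes were higher and 3.96% lower in IVF-ET at an unadjusted p under 0.05 with AI as deposited, and the median difference was -0.0059. Turned, the shares were 1.65% and 2.12%, and the median difference 0.0106. Counts below are at that unadjusted p, and of the listed genes CCN2, CGN, GJA1, PFKFB3 and SNAI2 alone passed the adjusted threshold. The lists and their members were chosen with earlier results of these data known. A count above the background can partly follow from that choice, and is no test of a list.

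Epithelial and junction genes had higher ratios in IVF-ET animals. Of 30 measured members, 15 were higher and 0 lower, and the median difference was 0.56. The list median was 0.59, 0.19, 0.53 and 0.37 in the IVF-ET animals, against 0.12, -0.19, -0.48, -0.51 and 0.16 in the AI animals. Every IVF-ET animal lies above every AI animal, and the AI animals fall on both sides of 0. Beside CGN and GRB7, the receptor tyrosine kinase ERBB2 had a difference of 1.04, the keratin KRT8 of simple epithelia 0.84, the membrane linker EZR 1.05 and the desmosome protein DSP 0.65. With the AI sign turned the median was 0.26, and 3 members were higher and 0 lower, EZR (0.79) and DSP (0.45) among those named. When the mean of IVF-ET replicate 3, with its second array turned, was added, 1 member was higher, with a median of 0.26 as deposited; with its first array turned it was 18, with a median of 0.67. Read as dye ratios, where direction has no fixed meaning, 1 member passed as deposited, with a median of 0.01.

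Stromal and matrix genes went the other way with AI as deposited. Of 37 measured members, 14 were lower in IVF-ET and 3 higher, with a median difference of -0.38. The list median was -0.24, -0.36, -0.05 and -0.15 in IVF-ET animals, against 0.13, 0.20, 0.30, 0.11 and 0.02 in AI animals. The signs of the groups are thus opposite in every animal. Next to COL6A3, the fibrillar collagen chain COL1A2 was -0.89, -1.06, -0.86 and -0.73 in IVF-ET animals and 0.62, 0.75, 0.52, 0.25 and -0.15 in AI animals (difference -1.28). EMILIN1, a glycoprotein of elastic fibres, had means of -0.56 in IVF-ET and 0.44 in AI, and the secreted matrix protein SPON1 had a difference of -1.13. CCN2, a member by its role in matrix production, is higher in IVF-ET and opposite to these.

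With the AI sign turned the stromal list had a median of 0.03, with 2 members higher and 1 lower: SPON1 kept -0.75, whereas the intermediate filament gene VIM, whose ratios were above 0 in nearly all animals, had 0.59. That median changed sign among the alternatives other than the one by dyes, between -0.08 and 0.10, while the epithelial median stayed between 0.0097 and 0.39. Read as dye ratios, the stromal list had 2 members higher and 0 lower with AI as deposited, and medians of 0.17 as deposited and -0.09 turned. With IVF-ET replicate 3 added in the same ways, 4 stromal members were lower as deposited with its second array turned and 17 with its first. Matrix proteases and their inhibitors resembled the stroma, with 7 of 36 lower and 1 higher and a median of -0.20 as deposited, and 0.04 turned. The collagen-degrading enzymes CTSK and MMP2 had differences of -0.68 and -0.76.

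**Figure D4:**
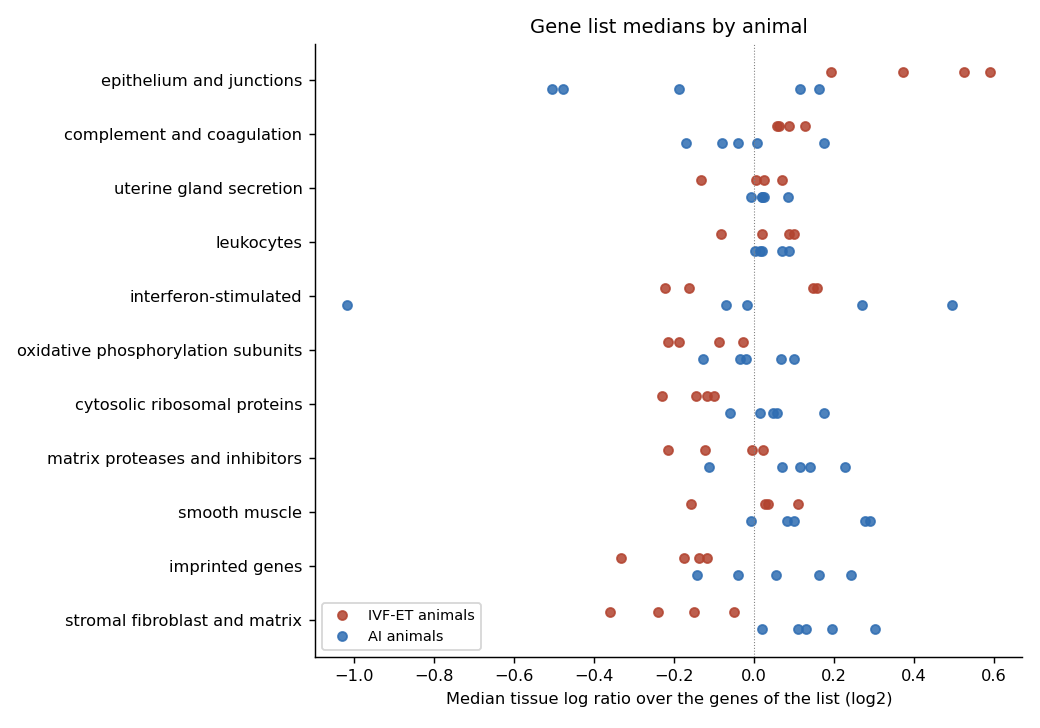
Median tissue log ratio (log2, horizontal axis) over the measured genes of 11 lists, 1 point per animal, for IVF-ET animals (red, upper row of each list) and AI animals (blue, lower row). IVF-ET lies above AI for the epithelial list (0.19 to 0.59 against -0.51 to 0.16) and below it for the stromal list; AI replicate 1 stands alone at -1.02 for the interferon-stimulated genes.

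Of 14 smooth muscle genes, 4 were lower and 1 higher as deposited and none in either direction turned. The contractile gene CNN1 had a difference of -0.74, with overlapping groups, and TPM1 of -0.50, without overlap. Among 42 adhesion genes 4 were lower and 1 higher, with GJA1 the called one. LAMA4, a laminin chain of basement membranes, was between -0.43 and -0.10 in IVF-ET animals and between 0.24 and 0.42 in AI animals, a difference of -0.51. SDC2, a heparan sulphate proteoglycan, had -0.54. Of 41 regulators of the WNT and BMP pathways and of implantation, 5 were lower and 1 higher, among them SNAI2. The WNT antagonist SFRP1 was -1.47, -1.21, -0.93 and -0.78 in IVF-ET animals, against -0.87, 0.90, 1.09, 1.35 and 0.06 in AI animals, and AI replicate 1 fell inside the IVF-ET range. TCF7L2, a transcription factor that WNT signals act through, had -0.48 as deposited and -0.38 turned.

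Imprinted genes are read from 1 parental copy, and many govern fetal and placental growth. The list, which also holds the X-inactivation RNA XIST, had lower ratios in IVF-ET as deposited in 5 of 18 and higher in 0, with a median of -0.24. The groups did not overlap in 5 of 18, all lower, against 1.85% of all probes. XIST had the smallest p, at -0.58, -0.37, -0.62 and -0.46 in IVF-ET animals and 0.09, 0.17, -0.12, 0.72 and 0.32 in AI animals (difference -0.74; limma, adjusted p = 0.217). The non-coding RNA gene H19 was -1.58, -0.99, -1.08 and -0.77 in IVF-ET animals, against -0.61, 1.38, 2.02, 1.52 and -0.60 in AI animals. The AI animals are spread widely, replicates 1 and 5 close to IVF-ET and the other 3 far above. DLK1, a membrane protein of the Notch ligand family, had a difference of -0.69, and SGCE, a sarcoglycan, of -0.47. Turned, 0 of 18 passed in either direction, and the median was -0.08.

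Secretory and hormone genes lay on both sides. In the list of gland secretions 1 of 14 was higher and 2 lower as deposited, with a median of 0.04. PIGR, which carries immunoglobulin A across epithelia, was 0.67, 0.36, 0.50 and 0.74 in IVF-ET animals and 0.37, -0.06, -0.41, -0.27 and 0.01 in AI animals. The adhesive secreted protein SPP1 was -1.94, -1.03, -0.44 and -0.69 in IVF-ET animals, against -0.42, 1.21, 0.12, -0.11 and 0.06 in AI animals. These genes of 1 list thus lay on opposite sides, and kept them turned, at 0.50 for PIGR and -0.86 for SPP1 (limma, unadjusted p = 0.0182 and 0.0170).

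For prostaglandins, HPGD, the enzyme that inactivates them, had a difference of 1.80 ± 0.44 (SE; limma, adjusted p = 0.217), and PTGFRN, an inhibitor of a prostaglandin receptor, of -0.65. HPGD was 1.76, 0.38, 0.75 and 1.31 in IVF-ET animals, against -0.76, -1.48, -1.60, -1.02 and 1.10 in AI animals. AI replicate 5 lies among the IVF-ET animals and the other 4 far below. Of 22 steroid signalling genes 4 were lower and 1 higher; the nuclear receptors NR2F2 and NR2F1 had -0.66 and -0.43, and the progesterone receptor PGR -0.36. Turned, NR2F1 had -0.59, but PGR 0.30. On the IGF axis, the ligand IGF1 had -0.53 and the insulin receptor INSR 0.42, whose second probe had 0.08.

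Nutrient and lipid transport had 4 of 41 higher and 1 lower. The carnitine carrier SLC22A5 was 1.44, 0.51, 0.68 and 0.72 in IVF-ET animals, against -0.63, -0.04, -0.95, -0.94 and 0.36 in AI animals. Likewise the fatty acid desaturase FADS2 and the fatty acid transporter SLC27A6 had differences of 1.16 and 1.32, and the iron exporter SLC40A1 of -0.74. FADS2 kept 0.76 turned (limma, unadjusted p = 0.0180). In retinoid handling 3 of 18 were higher and 2 lower. STRA6, the cell surface receptor for the retinol carrier, was -1.33, -1.04, -0.99 and -0.19 in IVF-ET animals and 0.30, 0.78, 1.38, 0.79 and -0.52 in AI animals. CRABP2, which delivers retinoic acid inside the cell, had -0.75, and its second probe -0.34. DHRS3, which reduces retinal back to retinol, stood on the other side at 0.98.

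In glycolysis and the hypoxia response, 6 of 33 were lower and 1, PFKFB3, higher. The haem oxygenase HMOX1 had -0.58 and the vasodilator peptide ADM -0.66. The 56 cytosolic ribosomal proteins had 9 lower and 0 higher, and a median of -0.16 as deposited and -0.12 turned. Their list medians were -0.12, -0.23, -0.15 and -0.10 in IVF-ET animals, against -0.06, 0.06, 0.05, 0.17 and 0.02 in AI animals. RPS6 had a difference of -0.57, whereas RPL37 was below 0 in all animals of both groups and had -0.02 as deposited and -0.61 turned. Of 73 subunits of oxidative phosphorylation, 7 were lower and 1 higher as deposited, and 9 lower and 1 higher turned. COX6C had -0.53 as deposited, and ATP5F1C and ATP5PO had -0.80 and -0.62 turned. As deposited, ATP5F1C and ATP5PO had -0.31 and -0.07. Their AI means, -0.25 and -0.28, had the sign of the IVF-ET means, which the turned comparison favours by construction. The lower count turned, 9 of 73, stands beside a background of 2.12%, and the turned median of the list was -0.13, against 0.0106 for all probes.

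Other cell types gave few differences. Of 21 vessel genes 1 was higher and 1 lower, the endothelial diaphragm gene PLVAP having a difference of 0.66 with AI animals between -0.71 and 0.68. Among 26 leukocyte, 5 red blood cell, 27 conceptus and trophoblast, 28 interferon-stimulated and 19 antigen presentation genes, none had an unadjusted p under 0.05 as deposited. Their median differences were 0.02, 0.0057, -0.08, 0.11 and -0.03. The interferon-stimulated list, which answers to the embryonic signal of pregnancy recognition in ruminants, had medians between -0.22 and 0.16 in IVF-ET animals. Its AI medians were -1.02, -0.07, 0.27, 0.50 and -0.02, and AI replicate 1 stood apart from all others. Complement and coagulation genes had 2 of 31 higher and 0 lower, CLU included. Among 44 cell cycle genes 2 were lower and 0 higher, among 36 chaperones 1 was higher and 1 lower, and among 32 proteasome subunits 1 was lower and 0 higher. The part of differences in epithelial and stromal markers in the values of other genes was not tested.

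Profiles were also compared as wholes, animal by animal. The arrays of an animal correlated with each other at 0.300, -0.0123, -0.318 and -0.164 in IVF-ET animals and at -0.0844, -0.0664, 0.183, -0.114 and -0.216 in AI animals. Of these 9 values 2 are clearly above 0, so over all probes the arrays of an animal had little in common. The means were -0.0486 ± 0.264 in IVF-ET (SD, n = 4) and -0.0597 ± 0.147 in AI (SD, n = 5; exact permutation test over 126 splits, two-sided, p = 0.944, smallest possible p = 0.00794).

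Correlated with the mean SCNT profile, IVF-ET animals had r = 0.434, 0.199, 0.164 and 0.359, all above 0. AI animals had 0.224, -0.187, -0.459, -0.433 and 0.222, split between the sides. The means, 0.289 ± 0.129 in IVF-ET (SD, n = 4) and -0.126 ± 0.336 in AI (SD, n = 5), differed by 0.415 (exact permutation test, two-sided, p = 0.0873, adjusted over 3 tests 0.262). AI replicates 1 and 5 lie in the IVF-ET range of this measure, while the other 3 AI animals do not. The place of AI replicate 1 rests on 1 array, at r = 0.439, while its other array had -0.0579. The arrays of AI replicate 5 had 0.162 and 0.123. Single arrays also parted in IVF-ET, at -0.00714 and 0.271 in replicate 2 and at 0.301 and -0.0615 in replicate 4. Turning the sign of all AI animals would therefore not bring them to 1 side.

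Resemblance within the groups followed the same lines. Each IVF-ET animal correlated with the mean of the other IVF-ET animals at 0.204 to 0.427, and each AI animal with the mean of the other AI animals at -0.131 to 0.155. The SD of a profile over probes was 0.262 ± 0.0327 in IVF-ET (SD, n = 4) and 0.287 ± 0.0262 in AI (SD, n = 5; exact permutation test, two-sided, p = 0.230, adjusted over 3 tests 0.345).

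**Figure D5:**
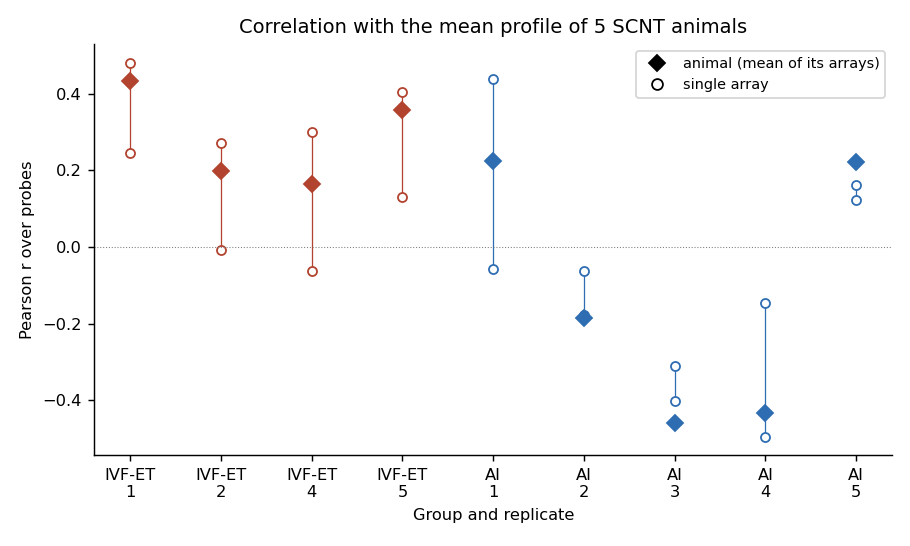
Pearson correlation over probes (vertical axis) of each IVF-ET and AI animal with the mean profile of 5 SCNT animals; diamonds are animals and open circles their single arrays. IVF-ET animals lie between 0.164 and 0.434, while AI replicates 1 and 5 lie at 0.224 and 0.222 and the other AI animals below 0.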

How the data were processed

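The authors deposited 1 log ratio per spot and array (27648 spots), taken here as log2; base, normalisation, order of the channels and genome build are not given in the sources used here. Per the labels' protocols, RNA was reverse transcribed from oligo-dT primers and coupled to Cy3 or Cy5, with the dyes exchanged between the 2 arrays of an animal except IVF-ET replicate 3. Adjacent duplicate spots were averaged into 13824 probes, arrays centred on their median and the 2 arrays of an animal averaged (Python 3.11.15, pandas 2.3.3). Of the probes, 8645 had 1 symbol in the platform annotation and 105 several; the 5074 absent from it were tested but have no name.

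Group means of 14 animals (4 IVF-ET, 5 AI, 5 SCNT) were fitted with limma 3.58.1 in R 4.3.3 (lmFit, eBayes), tested on simulated data. A probe needed values in 3 IVF-ET, 4 AI and 4 SCNT animals. Animal measures were compared by exact permutation in Python, and their p-values were adjusted with scipy 1.17.1.

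Named genes are the largest differences past the threshold without overlap, filled to 5 per direction by p, and those of smallest p in each list, up to 4 as deposited. A gene with several probes is given by the probe with most values. Members and lists were chosen with earlier results of these data known. No sequences or coordinates are given.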

Additional observations from a re-analysis of the deposited data

Results flagged for a closer look

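In 8 of 148 group-and-gene combinations checked, 1 animal stood far from the others of its group by Dixon's criterion, which chance gives in about 1 of 20 groups. In IVF-ET these were replicate 1 for SOX6 (0.60) and NMB (0.91) and replicate 4 for COX6C (-0.49). In AI they were replicate 5 for CCN2 (0.71), replicate 2 for DHRS3 (-1.26), and replicate 1 for MALSU1 (-0.0596), MEF2C (-0.35) and CHCHD3 (-0.34).

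The tissue ratio differed between IVF-ET and AI as deposited (limma, adjusted p under 0.05) by 1.75 for CCN2, 1.07 for CGN, 1.02 for PFKFB3, -0.98 for MALSU1, -1.25 for SNAI2 and -2.34 for GJA1.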

How the results depend on the processing

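The count of 8 probes past the threshold with AI as deposited became 18 with IVF-ET and AI animals alone in the fit, 19 after quantile normalisation, 33 with the animal as a random block over arrays, 80 with arrayWeights, and 33 or 0 when IVF-ET replicate 3 entered after its first or second array was turned. It was 0 after scaling to 1 median absolute deviation, 0 with trend and robust eBayes, and 0 to 26 without 1 animal of IVF-ET or AI. Without SCNT replicate 5, a setting chosen after seeing the data, it was 39. All 8 stayed among the calls of each setting with 18 or more probes except without AI replicate 1, which kept 7. With the sign turned the count stayed 0 except in the reading by dyes, and under both signs it stayed 0. Read as dye ratios and turned by the labelled dyes, 0 probes passed as deposited and 1074 with the AI sign turned. The turned comparison adds the group means, so the 1074 are not read as differences between the groups. The cause was not tested, and direction has no fixed meaning there.

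The IVF-ET minus AI difference in the correlation between an animal's arrays, 0.0110, was -0.0392 by Spearman and -0.0341 with the dye effect of the SCNT animals taken off (chosen after seeing the data), and -0.105 to 0.101 without 1 animal. The difference in correlation with the SCNT profile stayed above 0, and that in SD below 0, under every alternative run, none past the threshold. In the reading it was named for, no named gene changed sign, dye ratios aside; other readings were not run gene by gene. No paired analysis was possible because replicate numbers name different animals in each group.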
